A study of Danio rerio with 16 samples.

Results

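The genes described here act in mitosis, the separation of copied chromosomes, and in cytokinesis, the cleavage of the cell that follows it. They were taken as a fixed list of 56 symbols, and 55 of them, of 24753 gene symbols counted in every library, could be followed; *incenp* was not analysed here. *ube2c* had 2 gene IDs, which were summed. Their RNA was counted in single nuclei of adult zebrafish (*Danio rerio*) hearts. The 4 groups were *cited4a* mutants (pt38a/pt38a) 3 days post amputation (3 dpa) of about 20% of the ventricle, mutants without injury (UI), wild-type (WT) fish 3 dpa and WT fish UI. Nothing beyond the mutant allele and the amputation distinguishes the groups in the labels, and the sources used here give neither the age of the fish nor the number of hearts per library. Each group gave 1 matrix of UMI counts (unique molecular identifiers, each standing for 1 captured RNA molecule), so no comparison has a replicate check and no test was possible. Intervals are exact 95% intervals and cover counting error only.

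Entry into mitosis is driven by cyclin-dependent kinase 1 and its cyclins. Condensin then packs the chromosomes, and kinetochores tie them to the spindle. The anaphase-promoting complex (APC/C) releases sister chromosomes by having cyclins and a separase inhibitor degraded, and the central spindle with a contractile ring cuts the cell. Most of these genes are transcribed only late in the cell cycle, so their RNA marks cycling cells. Zebrafish heart muscle cells can divide after injury, whereas mammalian ones often stop before cytokinesis and become binucleate or polyploid.

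The matrices held 12360 barcodes (mutant 3 dpa), 35484 (mutant UI), 12167 (WT 3 dpa) and 8309 (WT UI). Nuclei are barcodes with 500 or more UMIs of which no more than 5% were mitochondrial. They numbered 9140, 9932, 10394 and 8178 in the same order, with medians of 950.5, 973, 1052 and 1725 UMIs. The mutant pair shared 133 barcodes and the WT pair 136, of which 22 and 119 were kept. The library labelled mutant UI stood apart: 19868 of its barcodes had under 500 UMIs and 5684 had over 5% mitochondrial UMIs. *cited4a* itself had 395 CPM (UMIs scaled to a common total per library) in heart-muscle-like nuclei labelled mutant 3 dpa and 33.3 in those labelled mutant UI, against 63.3 in WT 3 dpa and 169 in WT UI. The 3' counts do not show whether the mutant allele lowers this RNA, so they do not check the genotype labels. Because *cited4a* and the genes described here both ran in opposite directions in the 2 genotypes, libraries are named by their labels, and every direction below rests on those labels.

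In WT hearts all 55 genes were higher in the library labelled 3 dpa than in that labelled UI, and in mutant hearts 54 of the 55 were lower in the library labelled 3 dpa. Summed over the list, nuclei of the library labelled mutant 3 dpa held 126 CPM (interval 119 to 133, from 1299 UMIs). The library labelled mutant UI held 672 CPM (657 to 687, from 7424 UMIs). That labelled WT 3 dpa held 795 CPM (782 to 808, from 14726 UMIs), and that labelled WT UI held 156 (150 to 162, from 2527 UMIs). The libraries thus fell into a high pair, mutant UI and WT 3 dpa, and a low pair, mutant 3 dpa and WT UI. The ratio of 3 dpa over UI was 0.187 in the mutant (0.176 to 0.198) and 5.11 in WT (4.90 to 5.33). Mutant over WT, it was 0.158 (0.149 to 0.167) for the libraries labelled 3 dpa and 4.32 (4.12 to 4.52) for those labelled UI. Scaling with TMM factors, which assume that most genes do not differ, moved these ratios to 0.248, 3.52, 0.233 and 3.30.

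**Figure D1:**
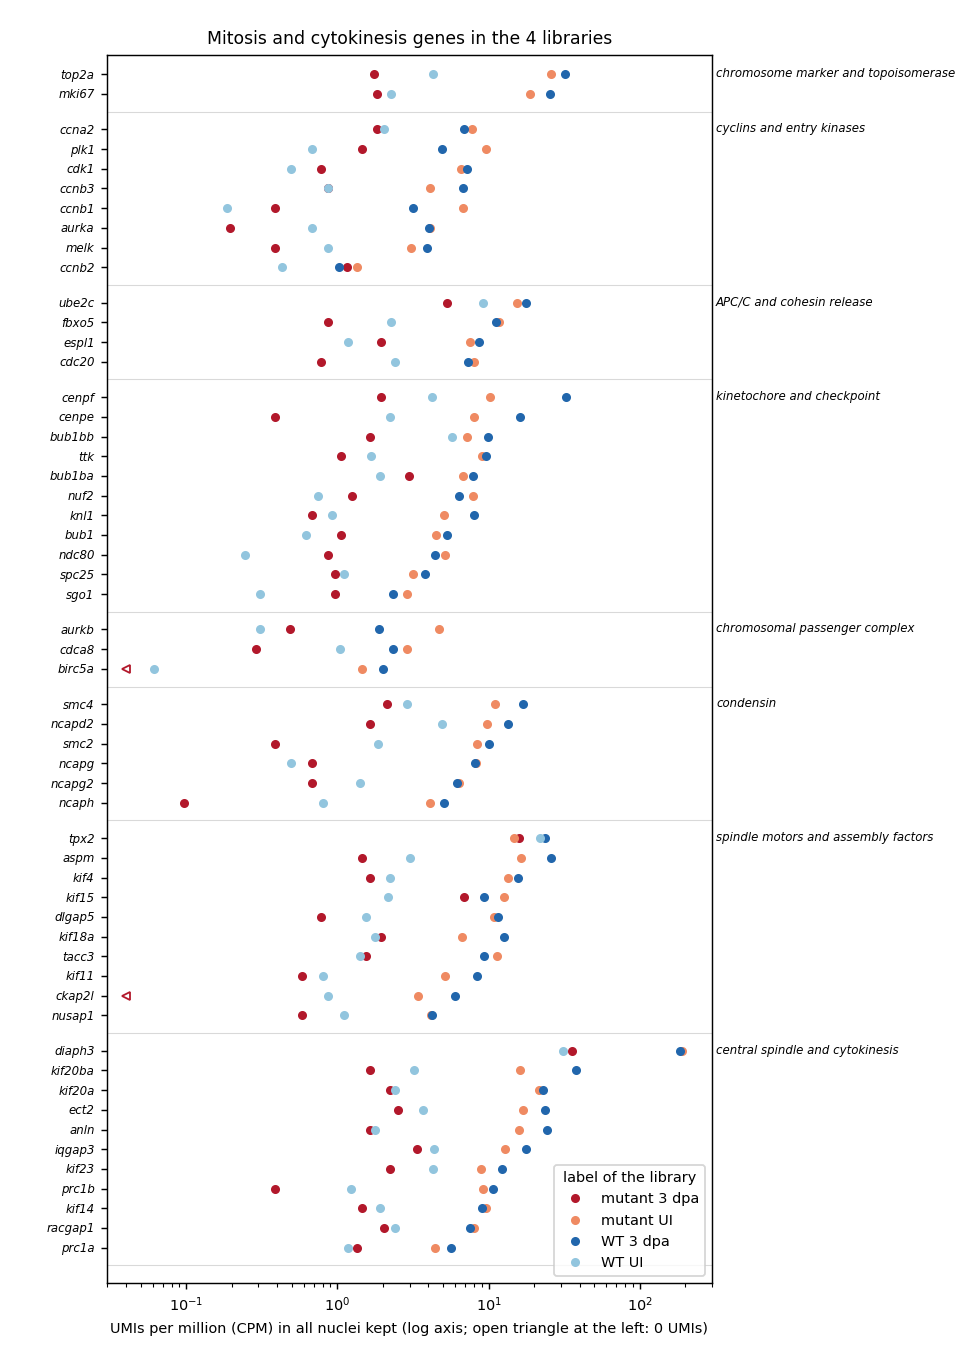
CPM (log axis) of each of the 55 genes in all nuclei kept, by role, with 1 point per library and no error bars; open triangles mark 0 UMIs. For nearly every gene the libraries labelled mutant UI and WT 3 dpa lie to the right of the other pair, and the 4 points of *tpx2* lie close together.

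Counted gene by gene on log2 of CPM plus 1, 50 of 55 members were 2-fold or more lower in the library labelled mutant 3 dpa than in mutant UI, against 15.1% of all 19299 genes with 10 or more UMIs over that pair. In WT, 50 of 55 were 2-fold or more higher in the library labelled 3 dpa, against 14.4% of 21855 genes. The median log2 ratio was -1.98 over the members and -0.31 over all genes in the mutant pair, and 1.91 over the members and 0.41 over all genes in the WT pair. Between the libraries labelled 3 dpa, 50 of 55 members were 2-fold or more lower in the mutant, where 23.4% of all genes were. Between those labelled UI, 47 of 55 were 2-fold or more higher in the mutant, where 18% of all genes were. The 4 ratios share libraries and are not independent of each other. Because most members are low, the count depends on the pseudocount: with 10 in place of 1, it was 9 in the mutant and 12 in WT. The shares of all genes given above are for a pseudocount of 1, so they cannot be set beside these 2 counts.

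Other genes of the cell cycle leaned the same way by smaller amounts. Of 71 further mitosis genes that could be compared, 48 were 2-fold or more lower in the library labelled mutant 3 dpa and 43 were 2-fold or more higher in that labelled WT 3 dpa. Their median log2 ratios were -1.31 and 1.21. Of 61 DNA replication genes, 42 were 2-fold lower in the mutant pair and 40 higher in the WT pair, with medians of -1.49 and 1.30. *prim2*, a subunit of DNA primase, had 26.3 CPM in the library labelled mutant 3 dpa and 78.0 in mutant UI, against 67.9 in WT 3 dpa and 20.9 in WT UI. The most abundant gene of the further mitosis list, *cep192*, which recruits material to the centrosome, differed little: it had 40.3 and 48.5 CPM in the mutant pair (3 dpa, then UI), and 77.9 and 54.3 in the WT pair.

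Among chromosome genes, *top2a*, the topoisomerase that untangles sister DNA, had 1.74 CPM in the library labelled mutant 3 dpa, 26.0 in mutant UI, 32.2 in WT 3 dpa and 4.31 in WT UI. Its mutant ratio of 0.067 (0.039 to 0.108) was the lowest of the 33 members with 10 or more UMIs in both mutant libraries. *mki67*, which encodes a protein that coats mitotic chromosomes, had 1.84, 18.8, 25.4 and 2.28 CPM in the same order of libraries. For both genes each library of the high pair lay above each of the low pair, with no overlap of counting intervals.

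The kinases and cyclins that start mitosis were rarer. *ccna2* (cyclin A2) had 1.84 CPM in the library labelled mutant 3 dpa, 7.78 in mutant UI, 6.91 in WT 3 dpa and 2.03 in WT UI. *cdk1*, the kinase itself, had 0.773, 6.61, 7.18 and 0.493 in that order. *plk1* (polo-like kinase 1), which acts at centrosomes and kinetochores, had 1.45, 9.59, 4.91 and 0.678. *ccna2* and *plk1* were higher in mutant UI than in WT 3 dpa, and for *plk1* those intervals did not overlap (7.85 to 11.6 CPM in mutant UI and 3.96 to 6.03 in WT 3 dpa). The 8 genes of this group summed to 7.06 and 43.3 CPM in the mutant pair and to 38.0 and 6.22 in the WT pair. *ccnb2*, a B-type cyclin, was too rare to read, with 12 and 15 UMIs in the mutant libraries and 19 and 7 in the WT ones.

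Over all nuclei, genes of the APC/C and of sister release had the lowest WT ratio of the 8 role groups. Their level in WT UI came mostly from 1 gene, *ube2c*, with 150 of the group's 245 UMIs. *ube2c*, the enzyme that passes ubiquitin to proteins bound by the APC/C, had 5.32 CPM in the library labelled mutant 3 dpa, 15.5 in mutant UI, 17.8 in WT 3 dpa and 9.24 in WT UI. Its WT ratio was 1.93 (1.59 to 2.35). *fbxo5* (Emi1), which inhibits the APC/C, had 0.87, 11.7, 11.1 and 2.28, and *espl1*, the protease separase, had 1.93, 7.51, 8.69 and 1.17, in the same order. The group ratio was 0.208 (0.165 to 0.261) in the mutant and 2.98 (2.58 to 3.45) in WT, overlapping the 3.44 (3.14 to 3.77) of the spindle group. In cardiomyocyte-like nuclei the order was reversed, with WT ratios of 2.58 (2.11 to 3.18) and 2.40 (2.12 to 2.71), which overlap.

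At the kinetochore, *cenpf*, a large coiled-coil protein of its outer layer, had 1.93 CPM in the library labelled mutant 3 dpa, 10.2 in mutant UI, 32.7 in WT 3 dpa and 4.25 in WT UI. *cenpe*, a motor that moves chromosomes to the spindle equator, had 0.387, 8.05, 16.1 and 2.22. The high pair was unequal for both genes, with WT 3 dpa above mutant UI. *bub1bb*, related to the checkpoint kinase BubR1, differed least within this group in WT: it had 1.64 and 7.24 CPM in the mutant pair and 9.88 and 5.73 in the WT pair, a WT ratio of 1.72 (1.34 to 2.24). The group ratio was 0.197 (0.164 to 0.236) in the mutant and 5.40 (4.80 to 6.10) in WT.

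The chromosomal passenger complex corrects wrong attachments and later moves to the central spindle. Its genes gave the fewest UMIs. *aurkb*, its kinase, had 0.483, 4.71, 1.89 and 0.308 CPM in the libraries labelled mutant 3 dpa, mutant UI, WT 3 dpa and WT UI, and *cdca8* (borealin) had 0.29, 2.90, 2.32 and 1.05. *birc5a* (survivin) had 0 UMIs in the library labelled mutant 3 dpa and 16 in mutant UI, against 37 in WT 3 dpa and 1 in WT UI. With 3 counts put in place of 0 in that library, *birc5a* was 4.99-fold lower in mutant 3 dpa than in mutant UI. That value leaves out the counting error of the 16 UMIs. *ckap2l*, a spindle protein, likewise had 0 UMIs in mutant 3 dpa, against 38 in mutant UI. Treated in the same way, it was 11.9-fold lower in mutant 3 dpa.

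Condensin is built on *smc2* and *smc4*. *smc4* had 2.13 CPM in the library labelled mutant 3 dpa, 11.04 in mutant UI, 16.9 in WT 3 dpa and 2.90 in WT UI, and *smc2* had 0.387, 8.42, 10.0 and 1.85. *ncapd2*, a subunit of condensin I, had 1.64, 9.77, 13.4 and 4.93, and its WT ratio of 2.72 (2.104 to 3.54) was below the group's 4.82 (4.14 to 5.63). The mutant ratio of the group was 0.117 (0.0875 to 0.153).

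Among spindle genes, *aspm*, which acts at spindle poles, had 1.45 CPM in the library labelled mutant 3 dpa, 16.4 in mutant UI, 25.8 in WT 3 dpa and 3.02 in WT UI. *kif4*, a motor on chromosome arms, had 1.64, 13.5, 15.7 and 2.22. *tpx2*, which activates Aurora A kinase on the spindle, departed from the whole list: it had 15.9, 14.8, 23.7 and 21.9 CPM. Its ratio of 3 dpa over UI was 1.07 in the mutant (0.86 to 1.34) and 1.08 in WT (0.94 to 1.25), the highest and the lowest of the list. Of its 356 UMIs in the library labelled WT UI, 7 (1.97%) were in nuclei with 5 or more other members, whereas 29.8% were in WT 3 dpa. A lower share in WT UI is not particular to *tpx2*, as WT UI had 39 nuclei with 5 or more members and WT 3 dpa 423. It was 3.03% against 50.8% for *ccna2* and 6.45% against 25.7% for *bub1bb*, while *birc5a*, with 1 UMI in WT UI, went the other way. In RefSeq's GRCz12tu annotation the span of *tpx2* overlaps that of *mylk2*, a kinase of muscle myosin. *mylk2* had 585 and 260 CPM in the mutant pair and 394 and 434 in the WT pair. Whether reads of one gene were counted to the other was not tested. In the same annotation 18 of the 56 listed genes overlap another gene, *mki67*, *top2a*, *cdk1*, *birc5a*, *smc4*, *ncapd2*, *kif20a* and *diaph3* among them, and values of these are uncertain to that extent.

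The genes of the central spindle and of cytokinesis gave the most UMIs, mainly through *diaph3*. This formin, which builds straight actin filaments, had 35.7 CPM in the library labelled mutant 3 dpa, 191 in mutant UI, 184 in WT 3 dpa and 30.9 in WT UI. *kif20ba*, a kinesin related to one needed for the last step of cleavage, had 1.64, 16.2, 37.8 and 3.20. *kif20a*, which carries passenger proteins to the central spindle, had 2.22, 21.4, 23.1 and 2.40. *anln* (anillin), a scaffold of the contractile ring, had 1.64, 15.9, 24.5 and 1.79, and its WT ratio of 13.7 (9.40 to 20.7) was the highest of the 47 members with 10 or more UMIs in both WT libraries. The group ratio was 0.173 (0.158 to 0.189) in the mutant and 6.19 (5.78 to 6.64) in WT. Without *diaph3*, the whole list gave 0.187 in the mutant and 4.90 in WT.

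**Figure D2:**
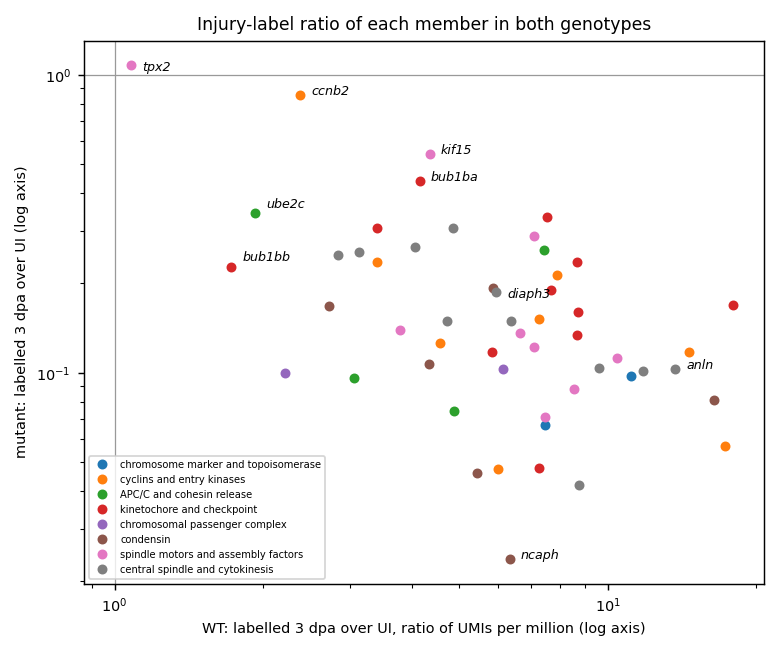
Ratio of CPM, labelled 3 dpa over UI, in mutant (y axis) and WT (x axis) hearts, both log axes, for the 53 members with a UMI in every library, coloured by role. All points but *tpx2* lie below 1 in the mutant, and all lie above 1 in WT.

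The nuclei were clustered without the cell cycle genes and named from marker genes, with "-like" added because the names rest on markers alone. In the library labelled mutant 3 dpa, cardiomyocyte markers made up 7.97% of UMIs in cardiomyocyte-like nuclei, against 5.60% in its other named classes. The shares were 6.42% against 3.14% in mutant UI, 10.0% against 4.60% in WT 3 dpa and 12.4% against 8.002% in WT UI, so muscle RNA was present in every class. When the library labelled mutant 3 dpa was clustered by itself, none of its clusters could be named cardiomyocyte-like. Different clusters also held most of the class in each library: cluster 0 (5055 of 6528 nuclei) in mutant 3 dpa, cluster 1 (4616 of 5616) in mutant UI, cluster 3 (3679 of 4882) in WT 3 dpa and cluster 2 (3392 of 4923) in WT UI. Nuclei left unnamed were 0.678%, 3.39%, 3.14% and 3.33% of these libraries.

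The split into a high and a low pair of libraries held in cardiomyocyte-like nuclei and in every other named class, each taken as a whole. The exception was that the intervals of erythroid-like nuclei overlapped between mutant UI and WT UI. Cardiomyocyte-like nuclei had 121 member CPM (113 to 129) in the library labelled mutant 3 dpa and 462 (447 to 479) in mutant UI. They had 572 (558 to 587) in WT 3 dpa and 128 (122 to 135) in WT UI. The ratio of 3 dpa over UI was 0.261 (0.243 to 0.281) in the mutant and 4.47 (4.21 to 4.74) in WT. Set against WT, the mutant had 0.211 (0.197 to 0.226) times the level at 3 dpa and 3.61 (3.39 to 3.84) times at UI. The ratios were thus nearer to 1 than over all nuclei. Of 54 members that could be compared in the mutant pair, 44 were 2-fold or more lower, against 12.6% of all genes. Of 55 in the WT pair, 47 were 2-fold or more higher, against 14.9% of all genes. *tpx2* was again apart, with 17.2 and 9.95 CPM in the mutant pair and 23.7 and 25.0 in the WT pair.

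Barcodes that failed the filters also held member UMIs. In the library labelled mutant UI, barcodes under 500 UMIs had 875 member CPM, above the 462 of its cardiomyocyte-like nuclei. In the library labelled mutant 3 dpa such barcodes had 165. The 19868 such barcodes in mutant UI held 6144 member UMIs, and 26 of these barcodes held 5 or more members. How much of these values was RNA outside nuclei was not tested. Neither WT matrix held barcodes under 500 UMIs. How much of the members' RNA in cardiomyocyte-like nuclei came from outside the nucleus was not tested.

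**Figure D3:**
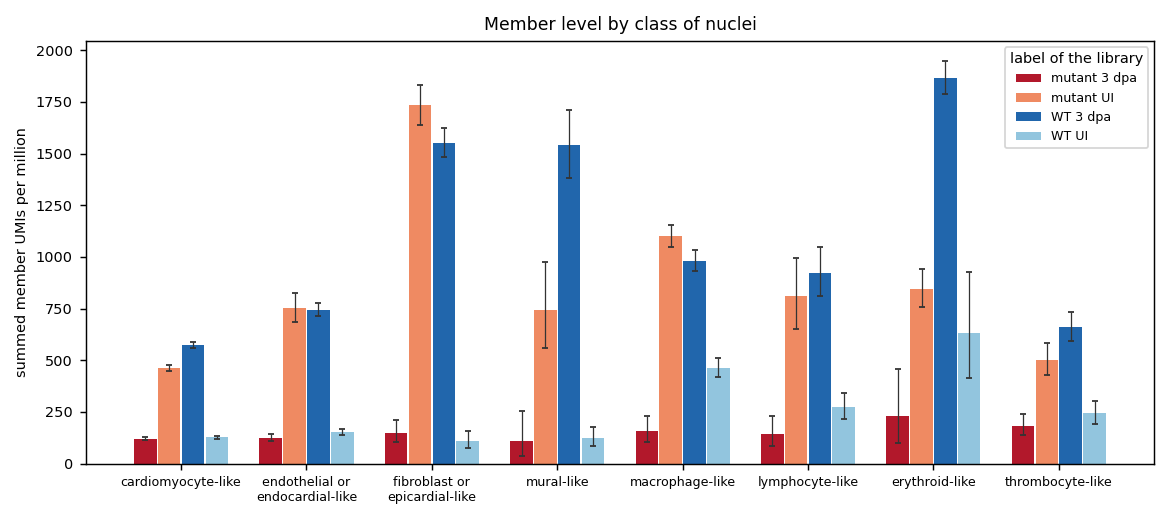
Summed member CPM (bars) with exact Poisson intervals (lines) in 8 named classes of nuclei, with the 4 libraries side by side. In every class the bars of mutant UI and WT 3 dpa exceed those of mutant 3 dpa and WT UI; the highest bar of the low pair is the erythroid-like one of WT UI (633 CPM, from 26 UMIs).

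The level differed between classes within a library. In the library labelled mutant UI, fibroblast- or epicardial-like nuclei had the most, 1733 CPM (1639 to 1831), followed by macrophage-like nuclei with 1102 (1050 to 1156). In WT 3 dpa erythroid-like nuclei led with 1866 (1787 to 1948), then fibroblast- or epicardial-like nuclei with 1553 (1483 to 1625) and mural-like nuclei with 1539 (1382 to 1709); the last 2 did not differ beyond counting error. Cardiomyocyte-like nuclei had the lowest level of the 8 classes in both of these libraries, though in mutant UI the 502 (431 to 581) of thrombocyte-like nuclei overlapped theirs. In the library labelled mutant 3 dpa the classes lay between 109 and 231 CPM with wide intervals.

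The ratio between injury labels differed across classes. Fibroblast- or epicardial-like nuclei had a ratio of 3 dpa over UI of 0.087 (0.060 to 0.121) in the mutant and 13.9 (9.81 to 20.4) in WT. Mural-like nuclei had 0.147 (0.046 to 0.364) and 12.2 (8.45 to 18.3). Macrophage-like nuclei had 0.145 (0.095 to 0.211) in the mutant and only 2.12 (1.89 to 2.38) in WT, where their level in the library labelled UI was already 463 CPM (418 to 512). That level came mainly from 1 of 2 macrophage-like clusters. Cluster 5, with 237 nuclei of WT UI, had 940 CPM (833 to 1058), and cluster 14, with 382, had 196 (160 to 238). In WT 3 dpa cluster 5 had 986 (932 to 1042), which overlaps its WT UI value. Cluster 14 had 926 (767 to 1108) there, from 72 nuclei, so the WT ratio of this class also depends on its mix of clusters. Endothelial- or endocardial-like nuclei had ratios of 0.167 (0.141 to 0.198) and 4.90 (4.42 to 5.45), but cluster 6 held 1658 of 1693 of them in mutant 3 dpa while cluster 4 held 1594 of 1632 in WT UI.

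To compare nuclei of different depth, each was thinned at random to 500 UMIs. Among cardiomyocyte-like nuclei, 23 of 6528 (0.352%, 0.223 to 0.528) kept 2 or more member UMIs in the library labelled mutant 3 dpa, and 165 of 5616 (2.94%, 2.51 to 3.41) did in mutant UI. In WT 3 dpa 276 of 4882 (5.65%, 5.02 to 6.34) did, and in WT UI 14 of 4923 (0.284%, 0.156 to 0.477). Unthinned, where deeper nuclei count more often, they were 1.69%, 7.92%, 18.2% and 3.66%. The value of WT 3 dpa was 2.81% when only barcodes with 1000 or more UMIs were clustered and named, so that its order relative to mutant UI, 2.77% there, is not settled. Erythroid-like nuclei reached 19.4% (16.9 to 22.0) in WT 3 dpa, against 9.68% (2.04 to 25.8) in WT UI with 31 nuclei. Fibroblast- or epicardial-like nuclei reached 17.8% (14.7 to 21.2) in mutant UI and 16.1% (13.1 to 19.5) in WT 3 dpa. In WT UI they had 0 of 215; 3 nuclei of 215 would be 1.40%, and the exact interval reaches 1.70%.

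**Figure D4:**
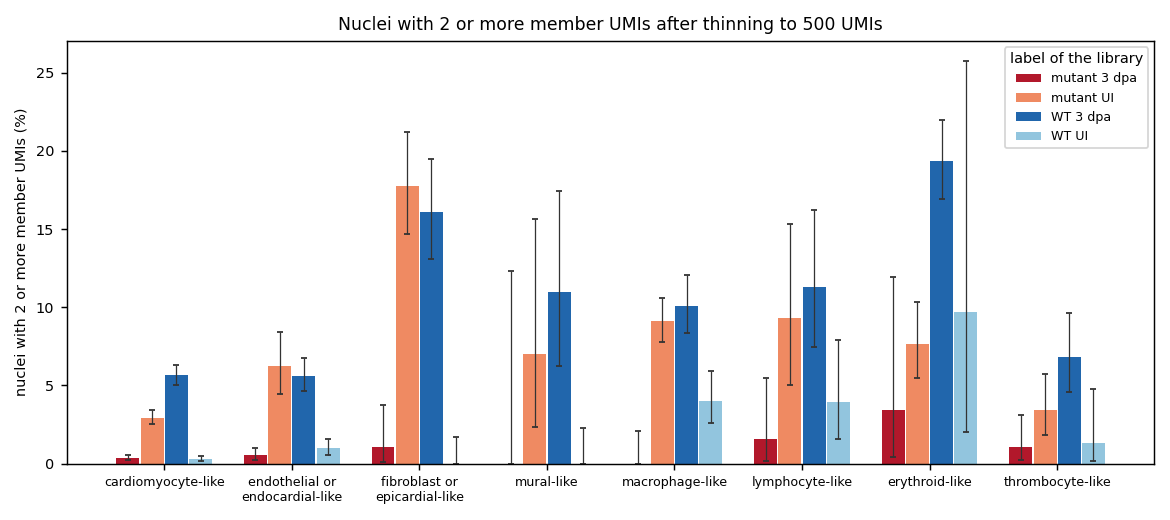
Share of nuclei with 2 or more member UMIs after thinning to 500 UMIs (bars), with exact Clopper-Pearson intervals (lines), by class and library. Erythroid-like nuclei of WT 3 dpa (19.4%) and fibroblast- or epicardial-like nuclei of mutant UI (17.8%) have the highest shares, and cardiomyocyte-like nuclei reach 5.65% in WT 3 dpa.

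Nuclei in which many different members were found together are described next. The threshold of 5 members was chosen after the data had been seen, and deeper nuclei pass it more easily. It was passed by 10 nuclei of the library labelled mutant 3 dpa, 240 of mutant UI, 423 of WT 3 dpa and 39 of WT UI. These 4.07% of nuclei in WT 3 dpa held 48.3% of its member UMIs, and 2.42% of nuclei in mutant UI held 38.8%. Such raised parts follow in some measure from choosing the nuclei by their members. The remaining nuclei still differed between libraries, with 114, 427, 455 and 132 member CPM in the same order. For each member, the share of its UMIs in nuclei with 5 or more other members was also taken. In WT 3 dpa this share had a median of 44.7% over the 55 members, from 25.7% for *bub1bb* to 62.2% for *birc5a*.

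The class makeup of these nuclei differed between libraries. In mutant UI 81 of 240 were macrophage-like, 61 cardiomyocyte-like and 60 fibroblast- or epicardial-like. In WT 3 dpa 108 of 423 were erythroid-like, 85 cardiomyocyte-like, 76 fibroblast- or epicardial-like and 67 endothelial- or endocardial-like. In WT UI 19 of 39 were macrophage-like and 6 cardiomyocyte-like. Very deep barcodes can hold more than 1 nucleus. Among these nuclei 31 of 423 in WT 3 dpa and 6 of 39 in WT UI had over 10000 UMIs, and none in the mutant libraries did. Only 56 kept barcodes of WT 3 dpa were that deep. Of the endothelial- or endocardial-like nuclei with 5 or more members, 18 of 67 in WT 3 dpa and 4 of 7 in WT UI were. Cardiomyocyte markers had 73874 CPM in those 67, against 39734 in other nuclei of that class in WT 3 dpa. Whether they hold more than 1 nucleus was not tested.

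Cardiomyocyte-like nuclei with 5 or more members numbered 4 in mutant 3 dpa, 61 in mutant UI, 85 in WT 3 dpa and 6 in WT UI; 10 or more members were found in 2, 15, 38 and 2. The richest nucleus of WT 3 dpa held 36 of the 55. After thinning, 48 of the 61 and 54 of the 85 kept 2 or more member UMIs, which follows in part from choosing these nuclei by their members. They were deeper than other cardiomyocyte-like nuclei, with a median of 2007 against 1141 UMIs in mutant UI and 4997 against 1452 in WT 3 dpa. DNA replication genes, which had no part in choosing them, had 4815 CPM in those of mutant UI, against 490 in other cardiomyocyte-like nuclei, and 3575 against 383 in WT 3 dpa.

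Markers of muscle and of other cells were checked in the same nuclei. Cardiomyocyte markers had 49205 CPM in the 61 nuclei of mutant UI, against 64552 in other cardiomyocyte-like nuclei, and 78794 against 101043 in WT 3 dpa; 18 of 18 markers had a UMI in both sets. In the 85 nuclei of WT 3 dpa the endothelial or endocardial markers (427 against 682), fibroblast or epicardial markers (423 against 889), macrophage markers (153 against 231) and erythroid markers (1263 against 1585) were lower than in other cardiomyocyte-like nuclei. Mural markers were higher, 1990 against 1606, with *kcnj8* and *tbx2b* at 0 among 10 markers. Mural markers were also higher in the 61 nuclei of mutant UI, 1213 (1038 to 1409) against 894. In the 6 such nuclei of WT UI they had 3100 (2426 to 3904) against 1822, and in the 4 of mutant 3 dpa 683 (251 to 1487) against 657.

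The 7 cardiomyocyte-like clusters were also unequal. In mutant UI the 92 nuclei of cluster 19, led by *fgf13a* and *myh6*, had 966 member CPM (791 to 1169) and the *ankrd1a*-led cluster 3 had 894 (815 to 978), which overlap, whereas the main cluster 1 had 428 (411 to 445). In WT 3 dpa cluster 3 had 657 (638 to 676) and the *bcam*-led cluster 10 had 629 (584 to 677), which also overlap. Nuclei with 5 or more members made up 1.82% of cluster 3 and 3.48% of cluster 10 there, at median depths of 1104 and 2384 UMIs. In cluster 10 mural markers were raised by 0.45 on the log2 scale against the median of all clusters. Its cardiomyocyte markers were raised by 0.50 against the median of the named clusters of other classes. These baselines differ, so the values cannot be ranked against each other. Cluster 11 had endothelial or endocardial markers raised by 0.61 and cardiomyocyte markers by 0.52, each on its own baseline as above, so its name is uncertain. It held 813 of the 4923 cardiomyocyte-like nuclei of WT UI, with 115 member CPM (101 to 130) there. The 471 nuclei of WT 3 dpa in cluster 2, the main cluster of WT UI, had 212 CPM (188 to 240), against 127 (119 to 136) in WT UI. In WT UI cluster 3 had 192 (159 to 230) and cluster 10 had 130 (107 to 158), so the WT difference varied between clusters. The mutant difference varied too, given here as 3 dpa and then UI. Cluster 0 had 117 (109 to 126) and 211 (132 to 319), and cluster 2 had 124.5 (99.6 to 154) and 227 (160 to 313). Cluster 1 had 174 (128 to 232) and 428, and cluster 3 had 349 (210 to 545) and 894. Cluster 10 had 89.2 (60.2 to 127) and 415 (359 to 478). Clusters are also where libraries differ most, so cluster and library cannot be fully told apart.

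Kinetochore and cytokinesis genes were then set against each other within cardiomyocyte-like nuclei. Of the UMIs on the 11 kinetochore and 11 central spindle or cytokinesis genes, the kinetochore genes held 18.9% (15.6 to 22.5) in mutant 3 dpa, 16.4% (14.8 to 18.1) in mutant UI, 19.7% (18.4 to 21.0) in WT 3 dpa and 26.2% (23.0 to 29.7) in WT UI. In the other named classes they held 23.6% (17.7 to 30.2), 19.7% (18.1 to 21.4), 25.7% (24.5 to 27.0) and 25.4% (21.7 to 29.3) in the same order. The kinetochore share of cardiomyocyte-like nuclei was below that of other classes beyond counting error in WT 3 dpa, while in WT UI and mutant 3 dpa the intervals overlapped. In mutant UI it was also lower, and the intervals only touched, at 18.13% and 18.11%. Overlap of intervals does not show that shares are equal. The most abundant gene on each side weighs heavily. Without *cenpf* and *diaph3* the shares were 36.4%, 31.9%, 28.2% and 39.6% in cardiomyocyte-like nuclei and 44.3%, 33.5%, 31.5% and 34.0% in the other classes, and all 4 pairs of intervals overlapped.

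The contrast was larger in nuclei with 5 or more members. In WT 3 dpa kinetochore genes held 14.7% (12.9 to 16.7) in the 85 cardiomyocyte-like nuclei, against 26.5% (24.9 to 28.3) in 330 nuclei of other named classes. Those classes were not alike: the share was 31.6% (28.1 to 35.2) in 108 erythroid-like nuclei, 25.3% (22.0 to 28.8) in 67 endothelial- or endocardial-like nuclei and 22.2% (19.2 to 25.4) in 76 fibroblast- or epicardial-like nuclei. In 12 mural-like nuclei it was 13.8% (8.42 to 21.0), which overlaps that of cardiomyocyte-like nuclei. Without *diaph3* the first pair of shares were 29.7% (26.3 to 33.3) and 40.7% (38.4 to 43.1), still apart. Erythroid-like nuclei then had 43.4% (39.0 to 47.8) and endothelial- or endocardial-like nuclei 40.9% (36.1 to 45.8), both apart from the cardiomyocyte-like value. Fibroblast- or epicardial-like nuclei had 37.3% (32.8 to 42.1) and mural-like nuclei 26.9% (16.8 to 39.1), both overlapping it. Leaving out barcodes over 10000 UMIs as well changed the first pair little, to 31.3% (27.3 to 35.5) and 41.1% (38.6 to 43.6). Without *cenpf* as well as *diaph3* the first pair were 25.2% (21.9 to 28.71) and 31.2% (28.85 to 33.6), barely apart. Among barcodes of at most 10000 UMIs they were 26.0% (22.1 to 30.2) and 32.3% (29.8 to 34.9), which overlap. By class without both genes, at any depth, erythroid-like nuclei had 33.8% (29.3 to 38.5), still apart. The 29.9% (25.1 to 35.0) of endothelial- or endocardial-like nuclei and the 29.4% (24.8 to 34.2) of fibroblast- or epicardial-like nuclei overlapped the cardiomyocyte-like value. *kif20ba* also weighs on the cytokinesis side. Over all cardiomyocyte-like nuclei of WT 3 dpa it gave 407 of the 1347 cytokinesis UMIs left without *diaph3*. In all nuclei of that library it had 700 UMIs. How far the contrast rests on *kif20ba* was not tested. In mutant UI the kinetochore share was 11.6% (9.27 to 14.3) in the 61 nuclei, against 18.4% (16.1 to 20.8) in 178 others, but without *diaph3* it was 29.0% (23.6 to 34.9) against 32.7% (29.0 to 36.6), which overlap. There, 60 fibroblast- or epicardial-like nuclei had 15.75% (12.3 to 19.7) and 16 endothelial- or endocardial-like nuclei 14.0% (8.24 to 21.8), both overlapping the cardiomyocyte-like value. The UMIs of a nucleus are not independent, so these intervals are too narrow.

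**Figure D5:**
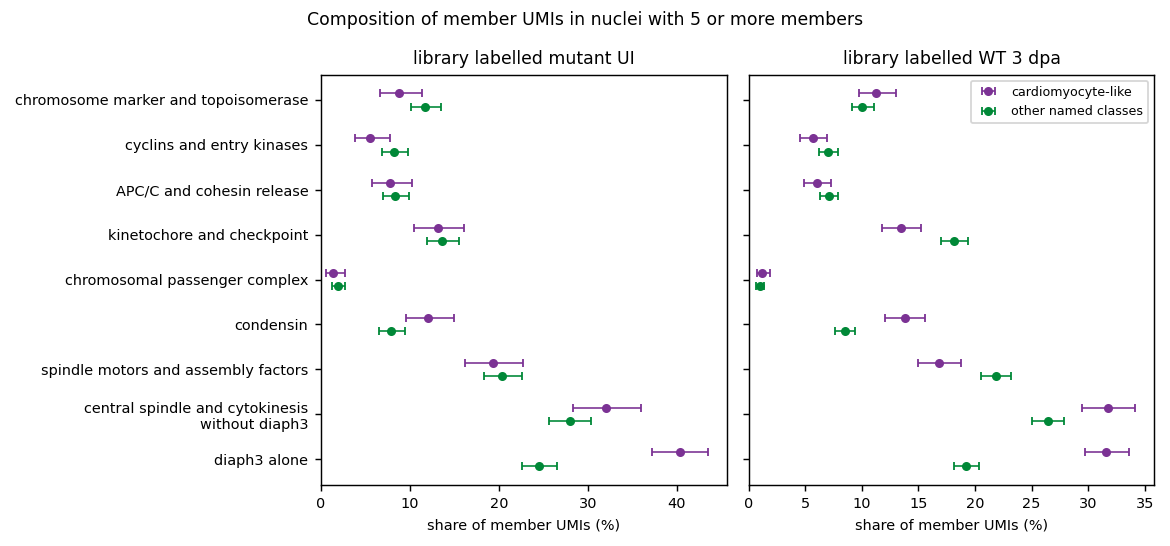
Share of member UMIs by role, with exact Clopper-Pearson intervals, in nuclei with 5 or more members. Cardiomyocyte-like nuclei are set against the pool of other named classes, in the libraries labelled mutant UI and WT 3 dpa. Role shares are of UMIs without *diaph3*, and the share of *diaph3* is of all member UMIs; *diaph3* and condensin are higher in cardiomyocyte-like nuclei in both panels, and the kinetochore genes lower in WT 3 dpa.

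Among nuclei with 5 or more members, shares of *diaph3* and condensin were compared next. In both libraries they were larger in cardiomyocyte-like nuclei than in the pool of other named classes. In these nuclei *diaph3* made up 40.3% (37.2 to 43.5) of member UMIs in the 61 cardiomyocyte-like ones of mutant UI, against 24.5% (22.6 to 26.5) in the 178 others, and 31.6% (29.7 to 33.6) against 19.2% (18.1 to 20.4) in WT 3 dpa. Condensin made up 12.1% (9.53 to 15.001) of the UMIs without *diaph3*, against 7.89% (6.54 to 9.40), in mutant UI and 13.8% (12.1 to 15.6) against 8.47% (7.61 to 9.40) in WT 3 dpa. Over all nuclei of these classes, *diaph3* made up 31.6% (30.04 to 33.3) against 26.3% (25.0 to 27.7) in mutant UI and 26.2% (25.1 to 27.4) against 20.9% (20.1 to 21.8) in WT 3 dpa, still apart. Condensin made up 11.04% (9.76 to 12.4) against 9.27% (8.25 to 10.4) in mutant UI and 9.66% (8.79 to 10.6) against 9.87% (9.17 to 10.6) in WT 3 dpa over all nuclei, and both pairs overlap.

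Members differed in how often they were found in these nuclei. *kif20ba* was found in 51 of the 85 cardiomyocyte-like nuclei (60.0%), against 90 of 330 others (27.3%), where the median depths were 4997 UMIs in the 85 and 2240 in all 423 nuclei with 5 or more members. *aspm* was found in 15 of 85 (17.6%) against 120 of 330 (36.4%), and *plk1* in 3 of 85 (3.53%) against 37 of 330 (11.2%), fewer although those nuclei were deeper. *cenpf* was found in 24.7% against 36.4%, and *cenpe* in 27.1% against 26.4%. In mutant UI, with 61 and 178 nuclei, *kif20ba* was found in 26.2% against 22.5%, *aspm* in 24.6% against 29.8% and *plk1* in 11.5% against 16.9%. These gaps were smaller, and whether they exceed counting error was not tested. Over all cardiomyocyte-like nuclei *kif20ba* had 1.28 and 11.4 CPM in the mutant pair and 40.0 and 2.34 in the WT pair, and its WT ratio of 17.1 (11.5 to 26.5) compares with 5.83 (5.14 to 6.64) for *diaph3*.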

How the data were processed

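Nuclei came from frozen hearts, sequenced after capture with a 10x Chromium 3' kit, per the labels' protocols. The authors deposited unnormalised UMI counts for each barcode, written by Cell Ranger 7.0.0 per the file headers; the build GRCz11, R 4.2.0 and Seurat 4.3.0 are named in the submitters' processing notes, with no role. Each group's 4 labelled samples come as 1 matrix (16 samples, 4 matrices). The gene tables differ between genotypes, so CPM was taken over the 25395 gene IDs with 1 symbol in all tables, which held 90.3% to 100.0% of UMIs; genotype and gene table cannot be told apart.

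Clustering (2000 variable genes without cell cycle genes, 30 components, 15 neighbours, Leiden resolution 1, seed 0) used numpy 2.4.6, scikit-learn 1.9.0 and leidenalg 0.10.2. Of 21 clusters, a cluster was named where at least 3 markers were raised and their mean log2 level, within libraries, exceeded that of other clusters by 1, and 7 were cardiomyocyte-like at an excess of 0.4. Both thresholds were chosen with the clusters in view. No doublet was removed in the main analysis. The 55 members, the role groups and the other lists were chosen with earlier results of these data known. Named are the 3 members with the most UMIs in each role group, and those with extreme ratios; *ccnb2*, *ckap2l*, and the clusters, markers and overlapping genes were named after their values were seen. Ratios have exact conditional binomial intervals, sums Poisson and shares Clopper-Pearson intervals. Scripts were tested on simulated data. Alternatives covered filters, doublets, scaling (edgeR 4.0.16 TMM), pseudocount, clustering and leaving out genes; 17 were planned and 2 added after seeing the data.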

Additional observations from a re-analysis of the deposited data

Results flagged for a closer look

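The ratio of summed member CPM, labelled 3 dpa over UI, lay on opposite sides of 1 in the 2 genotypes: 0.187 in the mutant and 5.11 in WT over all nuclei, and 0.261 in the mutant and 4.47 in WT over cardiomyocyte-like nuclei. With 1 library per group this difference was not tested.

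Barcodes that were left out also held member UMIs. Those with over 5% mitochondrial UMIs had 881 CPM in the library labelled mutant UI and 1313 in WT 3 dpa, and those under 500 UMIs had 875 in mutant UI. All 3 values are above the 672 (mutant UI) or 795 (WT 3 dpa) of the nuclei kept.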

How the results depend on the processing

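No ratio changed sides of 1 under any alternative run. Ratios are given in the order mutant 3 dpa over UI, WT 3 dpa over UI, mutant over WT at 3 dpa and at UI. TMM factors gave 0.248, 3.52, 0.233 and 3.30 in all nuclei and 0.327, 3.22, 0.280 and 2.75 in cardiomyocyte-like nuclei. The median of member ratios gave 0.254, 3.75, 0.234 and 3.15, and 0.352, 3.25, 0.316 and 2.96. Mutant over WT was 0.143 and 3.85 (all nuclei), and 0.191 and 3.21 (cardiomyocyte-like), with CPM over all genes of each table. Without *diaph3* it was 0.147 and 3.85 in all nuclei and 3.09 at UI in cardiomyocyte-like nuclei, where the WT ratio was 4.12. Barcodes of 1000 or more UMIs gave a cardiomyocyte-like WT ratio of 3.71, a mutant over WT ratio of 0.247 at 3 dpa and a WT 3 dpa share of 2.81%. Barcodes of at most 10000 UMIs, an alternative added after seeing the data, gave WT ratios of 4.89 and 4.11 and 0.230 for cardiomyocyte-like mutant over WT at 3 dpa; clustering each matrix by itself gave 4.78 for the WT ratio. A pseudocount of 10 left 9 (mutant) and 12 (WT) members past 2-fold in all nuclei, and 2 and 7 in cardiomyocyte-like nuclei. No share over all genes is given at that pseudocount, so these counts have no background to be read against.

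Shares of cardiomyocyte-like nuclei, in the order mutant 3 dpa, mutant UI, WT 3 dpa and WT UI, were 5.21%, 14.9%, 23.6% and 5.505% with 1 or more member UMIs, 0.0613%, 1.25%, 1.74% and 0.102% with 3 or more, 0.801%, 5.63%, 6.68% and 0.943% thinned to 1000 UMIs, and 1.69%, 7.92%, 18.2% and 3.66% unthinned. Kinetochore shares without *cenpf* and *diaph3* were 36.4%, 31.9%, 28.2% and 39.6%. The cause of these moves was not tested. No paired analysis was possible because the matrices carry no sample numbers, and the fit with a replicate block was not run. No value could be had for mutant 3 dpa clustered by itself. Most members had under 500 UMIs in all, so depth limits single genes, and 1 library per group limits every comparison.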
